A study of Mus musculus with 40 samples.

Results

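Glucose that is not used by glycolysis can be reduced to sorbitol and oxidised to fructose, and the transcripts of the enzymes that make and use that fructose were followed in mouse kidney. The genes are the aldose reductase Akr1b3, its aldo-keto reductase relatives Akr1b7, Akr1b8 and Akr1b10, the sorbitol dehydrogenase Sord, the ketohexokinase Khk and the triokinase Tkfc. They were taken by gene symbol, and all 7 were found among the 55401 genes of the count table. RNA of the renal cortex of 40 male mice on a C57BL/6J background, 1 library per mouse, had been sequenced from total RNA without its ribosomal RNA. The mice formed 8 groups of 5. The mice were heterozygous Ins2-Akita mice, in which a point mutation of the insulin gene Ins2 leaves the beta cells short of insulin and causes diabetes, or their wildtype (WT) littermates. WT and Akita mice were gavaged daily with 10% ethanol as vehicle or with MitoGamide at 10 mg/kg, a scavenger of reactive dicarbonyls that enters mitochondria. WT and Akita mice of the other 4 groups were gavaged with water or with MitoQ, a mitochondria-targeted antioxidant whose dose is not given in the sources used here. Treatment ran for 16 weeks, from 6 to 22 weeks of age. The term arm is used for a WT group and an Akita group given the same treatment, so that there were 4 arms. The Akita allele is a point mutation, so that gene counts give no check of the genotype labels.

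In the polyol pathway aldose reductase turns glucose into sorbitol with NADPH, and sorbitol dehydrogenase then turns sorbitol into fructose with NAD+. Ketohexokinase phosphorylates fructose to fructose 1-phosphate, an aldolase splits this into dihydroxyacetone phosphate and glyceraldehyde, and triokinase phosphorylates the glyceraldehyde. Fructose is used by the liver, the small intestine and the proximal tubule of the kidney, and aldose reductase also makes the osmolyte sorbitol in the medulla. Flux through the first step is a long-studied feature of diabetic tissue. Akr1b7, Akr1b8 and Akr1b10 reduce a range of aldehydes, and their part in the reduction of glucose is less well established. Dihydroxyacetone phosphate and its isomer are a source of methylglyoxal, the dicarbonyl that MitoGamide is made to trap.

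The total count of a library lay between 9106654 and 24321424 (median 15638400), and values are given as CPM, counts scaled to a common library size by TMM, a factor that also corrects for differences in library composition. Of the markers of the proximal tubule, the main cell type of the cortex, Slc34a1 lay between 2227 and 4635 CPM and Lrp2 between 2296 and 7450 CPM. There were 3 libraries that stood apart from the others, with a median Spearman correlation to the other libraries of at most 0.880, against at least 0.920 for the rest. Their share of counts from mitochondrial ribosomal RNA was 34.6% to 46.6%, beside 9.23% to 38.6% in the other libraries. These were Akita water replicate 2, WT water replicate 3 and WT MitoQ replicate 3. The inner medulla marker Slc14a2 passed 2 CPM of the library total, without TMM, in 9 libraries. Its highest value was in WT water replicate 1, at 30.7 CPM of the library total and 26.6 CPM with TMM. Of the libraries that stood apart or were high in Slc14a2, all but Akita ethanol replicate 4 were in the water and MitoQ groups. Results that rest on the water and MitoQ groups are therefore also given without such libraries where they change.

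On GRCm38 the 4 Akr1b genes form a cluster on chromosome 6, where they lie within 120.709 kb. Akr1b3 (chr6:34302434-34317478) is on the minus strand, and Akr1b8 (chr6:34354119-34368463), Akr1b10 (chr6:34384218-34396950) and Akr1b7 (chr6:34412334-34423142) follow on the plus strand. Sord (chr2:122234749-122265340) and Khk (chr5:30921431-30931248) are on the plus strand and Tkfc (chr19:10587791-10605654) on the minus strand. Counts were assigned to transcripts, so that sequence shared with other genes bears on them. Of the 31-base words in the transcripts of a gene, 15.2% were shared with another gene for Akr1b3, chiefly with the copy Gm38056, and 35.9% for Sord, with the copy Gm6652. The share was 27.7% for Akr1b7, 17.6% for Tkfc, whose ends overlap genes on the other strand, 9.48% for Akr1b8, 5.63% for Akr1b10 and 0% for Khk. The copies themselves held 51 to 340 counts a library for Gm38056 and 2 to 35 for Gm6652.

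The 250 bases before the RefSeq start site were read for 6 of the 7 genes from the RefSeq promoter table (GRCm38.p6). Sequence before the start of Akr1b10 and Tkfc is shown here because these genes changed with genotype in opposite directions. It is read 5′ to 3′ on the strand of the gene and stops before the first annotated exon that it meets, and capitals mark matches to a searched motif. For Tkfc the RefSeq start, and so the printed stretch, lies inside the gene as GENCODE annotates it, downstream of its outermost start.
Akr1b10, plus strand, chr6:34383997-34384217: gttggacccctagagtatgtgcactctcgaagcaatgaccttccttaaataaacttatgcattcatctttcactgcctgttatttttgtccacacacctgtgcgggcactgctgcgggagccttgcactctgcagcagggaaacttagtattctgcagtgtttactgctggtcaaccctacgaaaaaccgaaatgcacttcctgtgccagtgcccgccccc
Tkfc, minus strand, chr19:10604274-10604508: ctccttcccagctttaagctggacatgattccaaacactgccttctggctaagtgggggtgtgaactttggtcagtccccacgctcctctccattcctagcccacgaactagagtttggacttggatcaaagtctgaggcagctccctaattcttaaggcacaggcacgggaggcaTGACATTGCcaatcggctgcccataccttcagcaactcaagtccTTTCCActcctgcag
The motifs searched on both strands were the E-box CACGTG, bound by carbohydrate response factors among others, TGACNNNGC, the core of the antioxidant response element, and TGGAAA, the core of the element bound by the osmolarity factor NFAT5. They were present in 6.02%, 10.2% and 18.6% of 32851 such windows of 250 bases. Tkfc held TGACNNNGC 74 bases before the RefSeq start and TGGAAA on the reverse strand 30 bases before it, and Khk held CACGTG 71 bases before it. The windows of Akr1b7, Akr1b8, Akr1b10 and Sord held none of these letters.

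The enzymes that use fructose and sorbitol were far more abundant than the reductases. Per kb of transcript, Sord was at 468 ± 104 CPM per kb (SD, n = 40), Khk at 163 ± 42.0, Tkfc at 84.0 ± 14.7, Akr1b3 at 18.2 ± 5.40 and Akr1b10 at 10.99 ± 2.24. This order of level per length held between neighbours in 40 of 40 libraries. The median ratio was 2.96 for Sord over Khk, 1.95 for Khk over Tkfc, 4.71 for Tkfc over Akr1b3 and 1.60 for Akr1b3 over Akr1b10, with lowest ratios of 1.01 for Khk over Tkfc and 1.03 for Akr1b3 over Akr1b10. Akr1b7 at 0.82 and Akr1b8 at 0.66 CPM per kb were the lowest, and Akr1b7 exceeded Akr1b8 in 24 of 40 libraries only. Within the Akr1b cluster Akr1b3 made up a median of 59.0% of the summed CPM, here not divided by length, and Akr1b10 a median of 36.3%. Akr1b7 and Akr1b8 had between 3 and 35 and between 3 and 29 counts a library, so that small changes of these genes could not be seen at this depth.

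**Figure D1:**
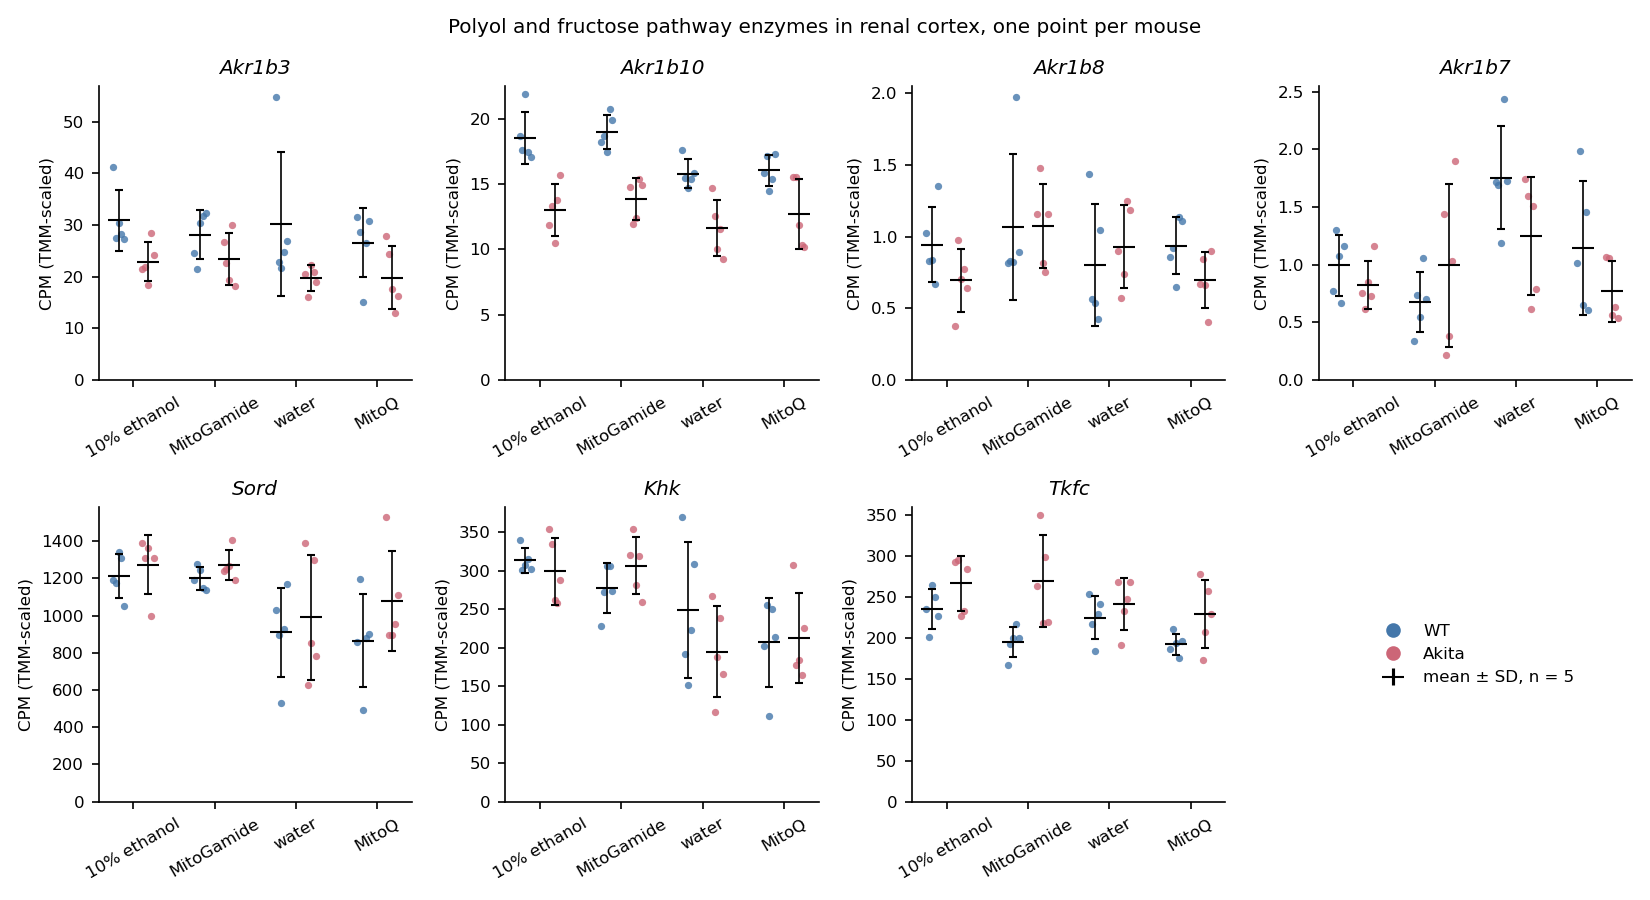
Level of the 7 genes in each of the 40 libraries, in CPM, with a panel for each gene, a point for each mouse and bars for the group mean and SD of 5 mice, WT in blue and Akita in red. The Akita mean of Akr1b10 lies below the WT mean in all 4 arms.

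The first comparison asked how the transcripts differed between diabetic and WT cortex. In Akita mice the reductases Akr1b10 and Akr1b3 were lower and the triokinase Tkfc was higher, whereas no change was called for Sord and Khk. Over the 4 arms Akr1b10 was 0.739 times and Akr1b3 0.739 times the WT level, and Tkfc was 1.19 times the WT level. In this mean of the 4 arms 3 of the 7 genes were called by the quasi-likelihood test of edgeR at an adjusted p under 0.05, beside 22.8% of all genes tested. Because bulk tissue was sequenced, fewer cells of a type and less RNA per cell cannot be told apart.

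Akr1b10, whose human namesake reduces aldehydes and retinal, had the most even difference between genotypes. On ethanol vehicle the WT mice had 18.7, 17.6, 21.9, 17.4 and 17.1 CPM and the Akita mice 11.9, 13.4, 10.5, 13.8 and 15.7 CPM. With MitoGamide the WT mice had 18.2, 18.7, 17.5, 20.8 and 19.9 CPM and the Akita mice 14.8, 11.9, 12.4, 15.4 and 14.9 CPM. In both of these arms every Akita mouse was below every WT mouse, as for 6.52% of all genes on ethanol vehicle and 5.97% with MitoGamide. On water the WT mice had 17.6, 15.4, 14.7, 15.4 and 15.8 CPM and the Akita mice 14.7, 12.5, 10.1, 11.6 and 9.24 CPM. With MitoQ the WT mice had 15.9, 17.1, 14.5, 15.4 and 17.3 CPM and the Akita mice 15.5, 15.5, 11.9, 10.4 and 10.2 CPM. With MitoQ the groups overlapped. On water the highest Akita mouse, at 14.71 CPM, lay next to the lowest WT mouse, at 14.73 CPM, and the groups overlapped when TMM was computed within this arm alone. All 20 Akita mice were below the WT mean of their own arm.

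The difference for Akr1b10 was a log2 fold change of -0.49 ± 0.11 (SE) on ethanol vehicle (edgeR adjusted p = 0.00673) and -0.43 ± 0.10 with MitoGamide (edgeR adjusted p = 0.0159). With the share of mitochondrial ribosomal RNA as a covariate the call with MitoGamide was lost, at -0.47 (edgeR adjusted p = 0.349). The difference was of like size on water, -0.44 ± 0.15, and with MitoQ, -0.34 ± 0.15, where it did not pass the threshold (edgeR adjusted p = 0.393 and 0.499). As the mean of the 4 arms it was -0.44 with a 95% interval of -0.56 to -0.31 (edgeR adjusted p = 9.21e-07). A test of whether the difference varied among the 4 arms gave an unadjusted p of 0.824 for Akr1b10 in edgeR. Of the 7 genes 0 were called in this test by edgeR or DESeq2, beside 0% of all genes in edgeR, and 0 had an unadjusted p under 0.05, beside 4.97%. The promoter stretch of Akr1b10 printed above held none of the searched letters.

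Akr1b3, the aldose reductase of the polyol pathway, was also lower in Akita mice, with more spread. On ethanol vehicle the WT mice had 41.3, 27.4, 30.4, 28.2 and 27.3 CPM and the Akita mice 21.5, 21.9, 18.3, 28.5 and 24.1 CPM. With MitoGamide the WT mice had 24.6, 21.5, 30.4, 31.7 and 32.3 CPM and the Akita mice 26.8, 22.7, 19.3, 29.98 and 18.2 CPM. The groups overlapped in both arms, on ethanol vehicle through Akita replicate 4 alone. On water the WT mice had 54.8, 22.8, 21.6, 24.8 and 26.9 CPM and the Akita mice 20.5, 16.0, 22.3, 21.0 and 18.9 CPM. With MitoQ the WT mice had 31.6, 28.7, 15.1, 26.5 and 30.7 CPM and the Akita mice 27.9, 24.5, 17.6, 12.9 and 16.3 CPM. Of the 20 Akita mice, 18 were below the WT mean of their arm.

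For Akr1b3 the mean log2 fold change of the 4 arms was -0.44 ± 0.11 (SE), with a 95% interval of -0.65 to -0.22 (edgeR adjusted p = 0.00232). Within single arms it was -0.41 on ethanol vehicle (edgeR adjusted p = 0.0417), -0.23 with MitoGamide (0.340), -0.61 on water (0.547) and -0.44 with MitoQ (0.674). The call on ethanol vehicle was lost without any 1 of Akita replicates 1, 2, 3 and 5 or WT replicates 1, 3 and 4 (-0.44 to -0.29, edgeR adjusted p = 0.0509 to 0.0927) and when the counts of the copies were added (edgeR adjusted p = 0.0733). It was also lost with the replicate block (edgeR adjusted p = 0.0578), in a fit of all 40 libraries (0.312) and with the share of mitochondrial ribosomal RNA as a covariate (0.213). Over the 9 alternatives other than single libraries left out, the value on ethanol vehicle was -0.50 to -0.33. The call held at -0.50 without Akita replicate 4, in which Slc14a2 passed 2 CPM of the library total. With the covariate the value with MitoGamide turned sign, to 0.06 (edgeR adjusted p = 0.956). The value on water rests on WT replicate 1, without which it was -0.27 (edgeR adjusted p = 1.00). That library also had the highest Slc14a2, an albumin transcript (Alb) at 292 CPM and the lowest share of mitochondrial ribosomal RNA, 9.23%. Without the 9 libraries in which Slc14a2 passed 2 CPM of the library total, the mean of the 4 arms was -0.34 (edgeR adjusted p = 0.0279), and with the share of mitochondrial ribosomal RNA as a covariate it was -0.25 (0.0208). The part of medullary tissue in this result was not tested further.

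**Figure D2:**
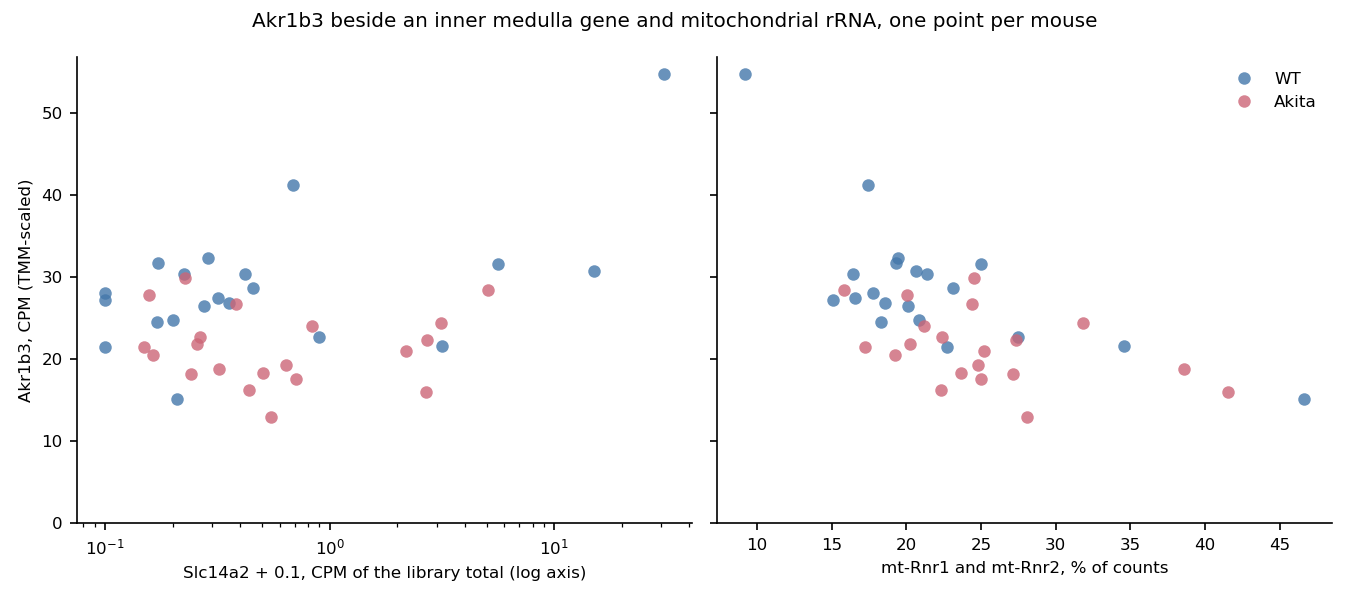
Akr1b3 in CPM against the inner medulla marker Slc14a2 in CPM of the library total (log axis, with a small constant added) and against the share of counts from mitochondrial ribosomal RNA in percent, with a point for each of the 40 mice, WT in blue and Akita in red. WT water replicate 1 stands apart with 54.8 CPM of Akr1b3, 30.7 CPM of the library total of Slc14a2 and 9.23% of mitochondrial ribosomal RNA.

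The cluster's other genes were low and gave no call. Akr1b7, named for the vas deferens and known as a detoxifying reductase of the adrenal cortex and the renin cells, had a mean log2 fold change of -0.21 (95% interval -0.61 to 0.19, edgeR adjusted p = 0.490) and Akr1b8 one of -0.17 (95% interval -0.49 to 0.14, edgeR adjusted p = 0.476). Of 5 markers of the adrenal cortex, the enzymes Cyp11b1, Cyp21a1 and Hsd3b1 were at 0 in 23, 28 and 27 of the 40 libraries, while Star lay between 2.33 and 6.32 CPM and Cyp11a1 between 0.19 and 1.16 CPM and neither was at 0 in any library. Akr1b7 was highest in WT mice on water, at 1.75 ± 0.45 CPM (SD, n = 5), and lowest in WT mice on MitoGamide, at 0.68 ± 0.26 CPM. Ren1, the marker of renin cells, had its highest mean in WT mice on water, at 46.8 ± 31.4 CPM (range 31.7 to 103 CPM). Its median there was 32.6 CPM, beside 33.1 CPM in Akita mice on water. Its lowest mean was in Akita mice on MitoGamide, at 21.5 ± 15.5 CPM.

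Tkfc, the triokinase that brings glyceraldehyde into glycolysis, moved the other way. With MitoGamide the WT mice had 167, 193, 199, 217 and 199 CPM and the Akita mice 264, 350.0, 218, 298 and 219 CPM, with every Akita mouse above every WT mouse, as for 6.80% of all genes. On ethanol vehicle the WT mice had 235, 201, 265, 249.7 and 227 CPM and the Akita mice 293, 295, 227, 233 and 285 CPM. These groups overlapped, as did those of the remaining arms. On water the WT mice had 253, 217, 184, 228 and 241 CPM and the Akita mice 268, 191, 233, 248 and 268 CPM. With MitoQ the WT mice had 186, 211, 193, 176 and 196 CPM and the Akita mice 279, 173, 207, 257 and 228 CPM. In all, 16 of 20 Akita mice were above the WT mean of their arm.

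For Tkfc the log2 fold change was 0.50 ± 0.14 (SE) with MitoGamide (edgeR adjusted p = 0.0300), 0.20 on ethanol vehicle (0.185), 0.10 on water (1.00) and 0.25 with MitoQ (0.692). The mean of the 4 arms was 0.25 with a 95% interval of 0.12 to 0.38 (edgeR adjusted p = 0.00364). The call with MitoGamide was lost without any 1 of Akita replicates 2 and 4 or WT replicates 1, 2 and 3 (0.39 to 0.51, edgeR adjusted p = 0.0606 to 0.0760), and with the share of mitochondrial ribosomal RNA as a covariate (0.73, edgeR adjusted p = 0.242). A test of whether the difference varied among the arms gave an unadjusted p of 0.240 for Tkfc in edgeR.

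Sord and Khk, the most abundant genes of the pathway, gave no call without a covariate. Sord had a mean log2 fold change of 0.15 with a 95% interval of -0.05 to 0.35 (edgeR adjusted p = 0.316). With the share of mitochondrial ribosomal RNA as a covariate it was 0.29 and was called (edgeR adjusted p = 0.00537), and 15 of 20 Akita mice were above the WT mean of their arm. On ethanol vehicle Sord ranged from 1050.0 to 1343 CPM (median 1192) in WT mice and from 996 to 1392 CPM (median 1309.8) in Akita mice, so that the groups overlapped widely. On water it ranged from 529 to 1173 CPM in WT mice and from 626 to 1392 CPM in Akita mice. Khk had a mean log2 fold change of -0.06 with a 95% interval of -0.27 to 0.15 (edgeR adjusted p = 0.746), which turned to 0.14 with the covariate (edgeR adjusted p = 0.0810), with 9 Akita mice above and 11 below the WT mean of their arm. On ethanol vehicle Khk was at 313 ± 15.9 CPM (SD, n = 5) in WT and 299 ± 43.5 CPM in Akita mice. On water it was at 249 ± 88.6 and 195 ± 59.3 CPM, with a lowest value of 117 CPM in Akita replicate 2, one of the 3 libraries that stood apart. The highest value, 369 CPM, was in WT replicate 1, the library with Alb at 292 CPM. The log2 fold change of Khk on water was -0.35, and -0.50 to -0.15 when 1 library was left out.

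For Sord and Khk the spread within each of the water and MitoQ groups was wider than in any of the ethanol and MitoGamide groups. The median coefficient of variation of Sord was 7.98% over the ethanol and MitoGamide groups and 27.6% over the water and MitoQ groups. In the same order it was 11.8% and 29.2% for Khk. For Akr1b3 the medians were 18.1% and 28.1%, but the groups ranged from 16.5% to 21.2% and from 12.3% to 46.1%, the highest being WT mice on water with replicate 1. The other genes lay closer. Akr1b8 had 29.6% in both and Akr1b7 32.8% and 37.7%. That of Akr1b10 was 11.1% and 12.97%, and that of Tkfc 11.4% and 12.4%. The share of mitochondrial ribosomal RNA also ranged more widely in the water and MitoQ groups, from 9.23% to 46.6%, than in the ethanol and MitoGamide groups, from 15.1% to 27.2%. Its part in the spread was not tested.

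The counts by arm were as follows. On ethanol vehicle 2 of the 7 genes were called, Akr1b10 and Akr1b3, both lower, beside 16.4% of all genes tested, while 8.22% of all genes were called lower. With MitoGamide 2 were called, Akr1b10 lower and Tkfc higher, beside 14.3% of all genes, 6.60% lower and 7.71% higher. In that arm the share of mitochondrial ribosomal RNA was 18.3% to 22.7% in WT and 22.4% to 27.2% in Akita mice. With this share as a covariate neither call held, as given above. On water and with MitoQ 0 of the 7 were called by edgeR, beside 0.552% and 0.557%, and DESeq2 also called 0. At an unadjusted p under 0.05 there were 2 of 7 on water, Akr1b10 and Akr1b3, beside 7.56% of all genes, and 1 of 7 with MitoQ, Akr1b10, beside 9.06%. A call in one arm and none in another does not show a difference between arms. In edgeR the Akita effect differed between the vehicles for 0 of 7 genes at an adjusted p under 0.05, beside 0% of all genes, and for 0 at an unadjusted p under 0.05, beside 4.25%. DESeq2 called 0 of 7 as well.

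**Figure D3:**
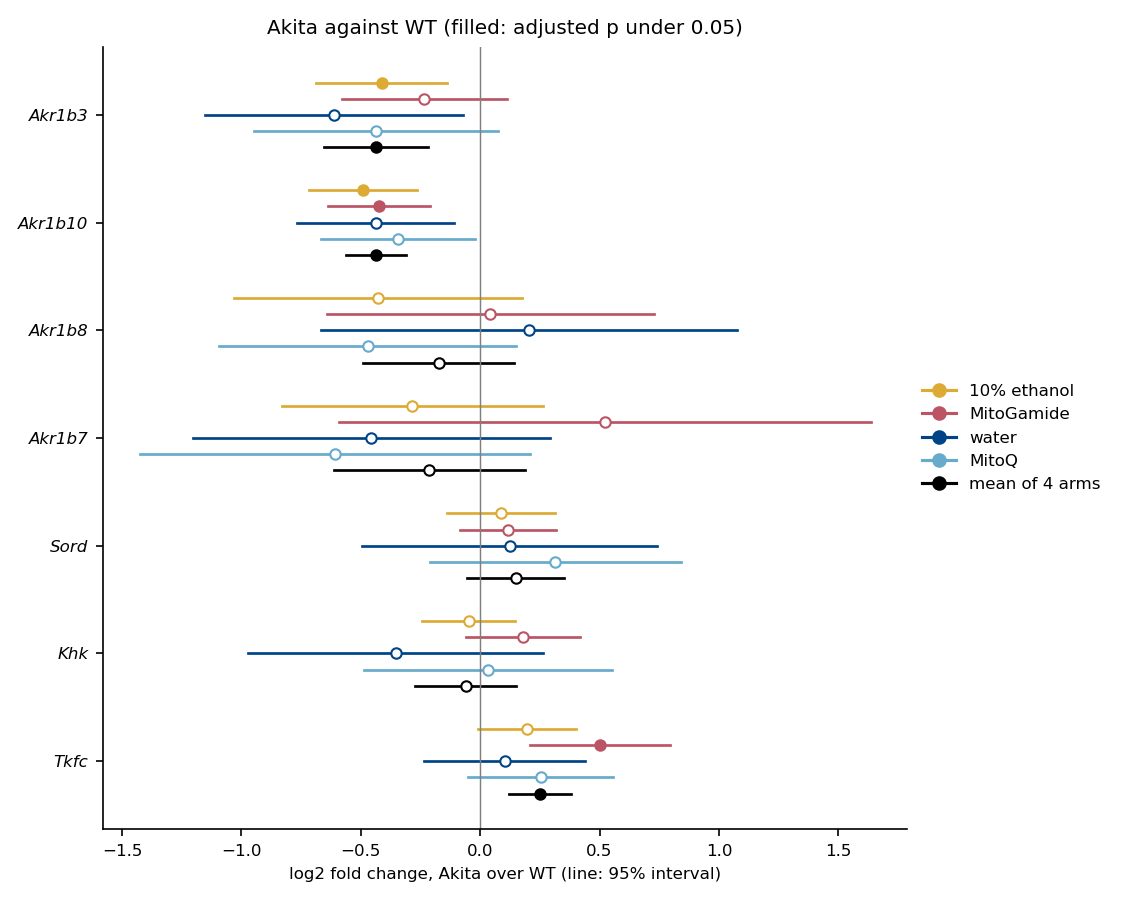
Log2 fold change of Akita over WT mice for the 7 genes in each of the 4 arms and as their mean, with 95% intervals from edgeR and filled points for an adjusted p under 0.05. Akr1b10 lies below 0 in all 4 arms, and Tkfc lies above 0 in all 4.

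The next comparisons asked whether either drug changed these transcripts against its own vehicle. No gene of the pathway was called for a drug. MitoGamide changed 0 of 7 in Akita mice in edgeR, beside 1.26% of all genes, and 0 of 7 in WT mice, beside 0%. MitoQ changed 0 of 7 in Akita mice and 0 of 7 in WT mice in edgeR, beside 0% in each, and DESeq2 called 0 in all 4 of these comparisons. At an unadjusted p under 0.05 there was 1 gene for MitoGamide in Akita mice, Akr1b8, beside 20.9% of all genes, and there were 2 in WT mice, Tkfc and Khk, beside 10.6%. For MitoQ there were 0 in both genotypes, beside 1.96% and 3.22%.

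The group means show how close the drug groups lay. Akr1b10 in Akita mice was at 13.03 ± 1.98 CPM (SD, n = 5) on ethanol vehicle and 13.9 ± 1.59 with MitoGamide, and at 11.6 ± 2.15 on water and 12.7 ± 2.67 with MitoQ. Akr1b3 in Akita mice was at 22.8 ± 3.77 and 23.4 ± 4.97 CPM, and at 19.7 ± 2.43 and 19.8 ± 6.15 CPM. In both genes the difference between drug and vehicle was smaller than the SD of either group. Over the 4 drug comparisons the log2 fold change of Akr1b10 lay between 0.03 and 0.12, with 95% intervals reaching from -0.26 to 0.50, and that of Akr1b3 between -0.18 and 0.04, with intervals from -0.78 to 0.44. For Sord the intervals reached from -0.65 to 0.68 and for Khk from -0.88 to 0.65.

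The lowest p for a drug was that of Tkfc with MitoGamide in WT mice. Tkfc was at 235 ± 24.1 CPM (SD, n = 5) on ethanol vehicle and 195 ± 18.2 CPM with MitoGamide, a log2 fold change of -0.27 with a 95% interval of -0.46 to -0.09 (edgeR adjusted p = 0.327). In Akita mice the corresponding means were 267 ± 33.6 and 269.7 ± 56.1 CPM. The genotype difference of the MitoGamide effect on Tkfc was 0.30 with a 95% interval of -0.06 to 0.66 (edgeR adjusted p = 0.641). Akr1b8 in Akita mice was at 0.70 ± 0.22 CPM on ethanol vehicle and 1.07 ± 0.29 CPM with MitoGamide, a log2 fold change of 0.63 (edgeR adjusted p = 0.233). The genotype difference was called for 0 of 7 genes for either drug by edgeR and by DESeq2, beside 0% of all genes in edgeR. At an unadjusted p under 0.05 it was 0 of 7 for both, beside 8.32% of all genes for MitoGamide and 1.14% for MitoQ.

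**Figure D4:**
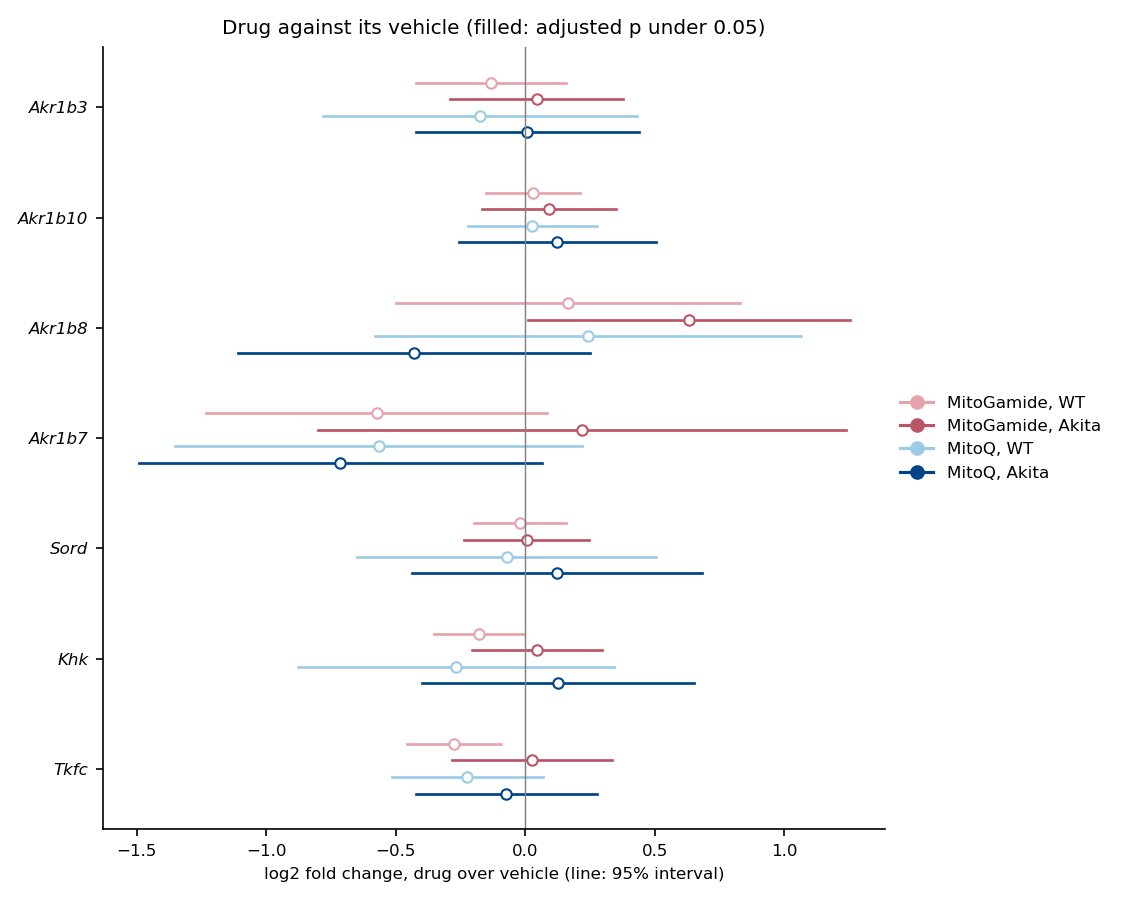
Log2 fold change of each drug over its vehicle for the 7 genes in WT and Akita mice, with 95% intervals from edgeR. No point is filled, as no adjusted p was under 0.05, and the intervals of Akr1b10 and Akr1b3 include 0 throughout.

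Ethanol vehicle and water groups were also set side by side, although their libraries differed in spread and were not labelled as randomised against each other, so that vehicle and cohort cannot be told apart. In edgeR 0 of 7 genes were called in Akita mice, beside 12.7% of all genes, and 0 of 7 in WT mice, beside 0%. Khk in Akita mice was at 299 ± 43.5 CPM on ethanol vehicle and 195 ± 59.3 CPM on water (SD, n = 5), a log2 fold change of 0.63 with a 95% interval of 0.19 to 1.08 (edgeR adjusted p = 0.0583), and DESeq2 called it alone of the 7 genes in Akita mice and 0 of 7 in WT mice. Without Akita water replicate 1 or replicate 4 the value was 0.77 or 0.71 and was called in edgeR (adjusted p = 0.0160 and 0.0302). Without Akita water replicate 2, which stood apart, it was 0.51 (edgeR adjusted p = 0.0858), without the libraries high in Slc14a2 it was 0.52 (0.257), and with the share of mitochondrial ribosomal RNA as a covariate it was 0.22 (0.799). Akr1b7 in WT mice was lower on ethanol vehicle than on water by a log2 fold change of -0.78 (edgeR adjusted p = 0.150). At an unadjusted p under 0.05 there was 1 gene in Akita mice, beside 39.7% of all genes, and there were 2 in WT mice, Akr1b7 and Akr1b10, beside 27.4%.

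Genes around the pathway were taken from 6 lists, and their counts refer to the mean difference of Akita from WT mice over the 4 arms. The median log2 fold change of all genes tested was -0.02, and 11.9% of them were called lower and 10.9% higher. Transporters that carry fructose were higher in Akita mice, whereas Akr1b3, which makes its precursor sorbitol, was lower. The difference between these directions was not tested. Of 7 listed, 6 were tested, and all 6 were called higher, with a median of 0.73, while Slc2a7, with at most 4 counts, was not tested. On ethanol vehicle Slc5a10 was at 83.6 ± 17.5 CPM (SD, n = 5) in WT and 196 ± 32.6 CPM in Akita mice, and Slc2a5 at 38.6 ± 10.4 and 72.1 ± 10.3 CPM. Slc5a10, the sodium-coupled mannose and fructose transporter SGLT5 of the proximal tubule, had a log2 fold change of 1.26 ± 0.10 (SE, edgeR adjusted p = 5.73e-12), and Slc2a5, the fructose transporter GLUT5, one of 0.94 ± 0.11 (edgeR adjusted p = 1.90e-08). Slc2a9, the urate transporter GLUT9, was higher by 0.84 and Slc2a2, the glucose and fructose transporter GLUT2, by 0.62. Slc2a8 (GLUT8) and Slc5a9 (SGLT4) were higher by 0.20 and 0.21. The call on Slc2a8 was lost without the libraries high in Slc14a2 (edgeR adjusted p = 0.0899) and without a filter on low counts (0.0969). Its value was 0.18 to 0.25 over the 9 alternatives other than single libraries left out. Calls by arm were 6 on ethanol vehicle, beside 16.4% of all genes, 3 with MitoGamide, beside 14.3%, 1 with MitoQ, beside 0.557%, and 0 on water, beside 0.552%.

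The steps from fructose 1-phosphate to the trioses did not move as a group. Of 10 genes tested, 3 were called higher and 2 lower, and 5 gave no call, with a median of 0.06. Among them the aldolase Aldoc was higher by 0.80 on the log2 scale and the glycerol 3-phosphate dehydrogenase Gpd1 by 0.35. Adh1, an alcohol dehydrogenase, had a log2 fold change of -1.14 (edgeR adjusted p = 1.24e-07), and Glyctk, the glycerate kinase, one of -0.67 (edgeR adjusted p = 2.38e-06). Of the route from glucuronate to the pentose phosphates, 5 of 5 genes were tested, with 2 called higher and 1 lower and a median of 0.15. Transketolase (Tkt) was higher by 0.43 (edgeR adjusted p = 1.11e-05) and Cryl1, a gulonate dehydrogenase, by 0.38, and the xylulokinase Xylb had a log2 fold change of -0.26.

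Among the hexokinases, which compete with aldose reductase for glucose, 4 of 6 were tested. Hk1 was higher by 0.29 on the log2 scale and Hk2, at a mean of 11.5 counts, had a log2 fold change of -0.52 (edgeR adjusted p = 0.0407). By arm Hk2 was at -1.19 on water, -0.85 with MitoQ, -0.15 on ethanol vehicle and 0.15 with MitoGamide, and its call was lost when any 1 of 22 libraries was dropped (smallest change -0.36 without WT MitoQ replicate 4, edgeR adjusted p = 0.128). Of the list of osmolyte genes, which holds Nfat5, the factor that also induces aldose reductase in the medulla, 6 of 7 were tested, without Slc6a12, with 1 called higher and 2 lower and a median of -0.17. Nfat5 itself had a log2 fold change of -0.09 (edgeR adjusted p = 0.401) and the inositol transporter Slc5a3 one of -0.25 (0.0970). The taurine transporter Slc6a6 was higher by 0.26, a call lost without the libraries high in Slc14a2 (edgeR adjusted p = 0.0636). Over the 9 alternatives other than single libraries left out, the value of Slc6a6 was 0.24 to 0.27. The chaperones Hspa1b and Hspa4l had log2 fold changes of -1.38 and -0.40. Of the carbohydrate response genes, 3 of 5 were called higher in edgeR, with a median of 0.19. These were the liver-type pyruvate kinase Pklr at 0.82 (edgeR adjusted p = 9.34e-08), Txnip, an inhibitor of thioredoxin and glucose uptake, at 0.51 (0.0464) and Mlxip, the factor MondoA, at 0.19 (0.0465). Of these calls only that of Pklr held when any 1 of the 40 libraries was dropped and under every other alternative. In Akita mice on MitoGamide Txnip ranged from 215 to 1443 CPM, and without replicate 5 of that group its mean of the 4 arms was 0.32 (edgeR adjusted p = 0.123). The call on Txnip was lost when any 1 of 18 libraries was dropped and that on Mlxip when any 1 of 12 was. Both were lost with the share of mitochondrial ribosomal RNA as a covariate (edgeR adjusted p = 0.0682 and 0.151) and without the libraries high in Slc14a2 (0.120 and 0.162). Over the 9 alternatives other than single libraries left out, Txnip was at 0.46 to 0.57 and Mlxip at 0.12 to 0.24. Mlxipl, which encodes the factor ChREBP, had a log2 fold change of -0.24 (edgeR adjusted p = 0.370). Of all genes in the lists Mlxipl was the one called for a drug, with a log2 fold change of -0.57 for MitoGamide in Akita mice (edgeR adjusted p = 0.0299), beside 1.26% of all genes. This call was lost when any 1 of 7 of its 10 libraries was dropped (-0.62 to -0.51 over all 10), with the replicate block (edgeR adjusted p = 0.117), in the fit of all 40 libraries (0.514), without the libraries high in Slc14a2 (0.0851) and with the covariate (0.542).

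Markers of cell types moved with genotype as well, and their part in the results above was not tested. Of 7 proximal tubule markers 3 were called lower in Akita mice over the 4 arms in edgeR, with a median of -0.22. Slc7a13, a marker of the last segment of the proximal tubule, had a log2 fold change of -1.61 (edgeR adjusted p = 2.10e-07), and Slc34a1 and Lrp2 had values of -0.29 and -0.38. Cubn, from the same list, had a value of 0.24 (edgeR adjusted p = 0.132). Of 3 principal cell markers 2 were called higher, Aqp2 at 0.98 and Aqp3 at 0.33, while Fxyd4 had a value of -0.15 (edgeR adjusted p = 0.388). The podocyte gene Nphs1 had a value of 0.47. The inner medulla marker Slc14a2 had a log2 fold change of -0.14 (edgeR adjusted p = 0.935).

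Likeness between transcripts was described by Pearson's r of the log2 level over the 40 libraries after subtraction of group means, and is given with r of the 8 group means. Such values share library composition and depth and carry no test. Sord went with Khk at 0.87 (group means 0.84), and Akr1b3 went with Khk at 0.67 (group means 0.51) and with Akr1b10 at 0.54 (group means 0.93). The genes most like Sord were Cmbl, Akr1a1 and Aldh9a1, each at 0.95 (group means 0.95, 0.96 and 0.97), and those most like Khk were Ufc1 and Uqcr10 at 0.97 (group means 0.96 and 0.89) and Nme2 at 0.96 (group means 0.97). For Tkfc they were Slc25a10 at 0.75 (group means 0.85), Pklr at 0.73 (group means 0.86) and Xpnpep1 at 0.72 (group means 0.73). For Akr1b3 they were Nhp2 at 0.86 (group means 0.71), Tmco3 at 0.83 (group means 0.96) and Lipo3 at 0.83 (group means 0.92). For Akr1b10 they included Ggta1 and Mtrf1l at 0.60, with group means at -0.13 and 0.67. The gene most like Akr1b7 was Tbc1d1 at 0.63 and that most like Akr1b8 was Aldh1a7 at 0.74, but their group means had the opposite sign, at -0.61 and -0.16. With the renin cell marker Ren1, Akr1b7 had an r of 0.57 within groups, and r of the group means was not computed for this pair. Akr1b10 and Tkfc, which changed in opposite directions with genotype, had an r of 0.08 within groups (group means -0.57).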

How the data were processed

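The deposited values are expected counts per gene. According to the study's methods the authors removed low-quality bases with Skewer, assigned the reads to GENCODE mouse transcripts with kallisto (0.46.1 in the submitters' notes, with R 4.0.2 and GRCm38) and summed the estimated counts of transcripts to genes. The table holds 40 columns, all of them used (0 other columns of per-sample values), and its values are whole numbers. Total counts were 9106654 to 24321424 a library, and precision at low counts is limited by this depth. Each library is 1 animal. Positions came from a GENCODE annotation of GRCm38, which held 99.5% of the identifiers, and promoters from the RefSeq table.

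Each of 15 comparisons was fitted on its own libraries in R 4.3.3 with edgeR 4.0.16 (limma 3.58.1), using TMM factors and the quasi-likelihood test. A gene was tested if its counts averaged 10 or more, p-values were adjusted by Benjamini-Hochberg over all genes tested, and a call is an adjusted p under 0.05. All 7 genes passed this filter in every comparison. The steps were tested on simulated data. The 7 genes are named throughout. Of each list the genes called in the mean of the 4 arms and those with the lowest p are named, and the 3 genes most like each of the 7 by Pearson's r, under the same minimum over the 40 libraries. Some genes that this rule selects are not reported here. Genes and lists were chosen with earlier results of these data known.

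As alternatives DESeq2 1.42.0 or RLE factors replaced edgeR with TMM, and the filter was dropped or raised to 10 counts in each library. All 40 libraries were fitted together, replicate numbers were used as a block, and single libraries were left out. Chosen after seeing the data were fits without the libraries whose median Spearman correlation was under 0.9, fits without those with Slc14a2 above 2 CPM, the share of mitochondrial ribosomal RNA as a covariate, and the addition of counts of copies, as was the use of all these alternatives on the genes of the lists. The copies added were processed pseudogenes, except Gm38056, which is not annotated as one.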

Additional observations from a re-analysis of the deposited data

Results flagged for a closer look

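Within the 56 groups of 5 mice formed by the 7 genes, 4 held a mouse whose distance to its nearest neighbour exceeded 0.71 of the range of the group. By chance about 1 in 20 groups does so, or 2.8 of 56. Akr1b3 in WT ethanol replicate 1 was at 41.3 CPM, with the other mice of the group from 27.3 to 30.4 CPM, and in WT water replicate 1 it was at 54.8 CPM, with the others from 21.6 to 26.9 CPM. Akr1b8 in WT MitoGamide replicate 4 was at 1.97 CPM, with the others from 0.816 to 0.892 CPM. Sord in Akita ethanol replicate 4 was at 996 CPM, with the others from 1307 to 1392 CPM. That library also had Slc14a2 at 4.42 CPM.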

How the results depend on the processing

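In the mean of the 4 arms Akr1b10 (-0.45 to -0.40), Akr1b3 (-0.46 to -0.25) and Tkfc (0.24 to 0.34) were called with the same sign under every alternative and in all 40 fits that left out 1 library. With the share of mitochondrial ribosomal RNA as a covariate Sord was called too (0.29, edgeR adjusted p = 0.00537). In single arms the calls were less stable, and the causes were not tested. On ethanol vehicle the 2 calls became 1, with Akr1b3 lost, in the fit of all 40 libraries, with the replicate block (edgeR adjusted p = 0.0578), with the covariate and with the counts of copies added, and 1 to 2 when 1 library was left out. On water the fit of all 40 libraries gave 1 call, Akr1b10 (edgeR adjusted p = 0.0428). With MitoGamide the covariate left 0 of 2 calls, and leaving out 1 library left 1 to 2. Ethanol against water in Akita mice gave 1 call, Khk, with DESeq2 and in the fit of all 40 libraries, and 0 to 1 when 1 library was left out, with the call made without Akita water replicate 1 or replicate 4. The replicate block changed no other call of the 7 genes. Taken over all groups, most samples with the same number did not deviate together (30 of 140 pairs above an r of 0.1, median -0.0088). Among the water and MitoQ groups, however, replicate 3 had an r of 0.17 to 0.59 in every pair of groups. The other numbers had values of both signs there. Whether a shared number marks a batch was not tested. For all genes the block moved the calls of ethanol against water in Akita mice from 2283 to 0. Calls for MitoGamide in Akita mice went from 214 to 0. Those of Akita against WT went from 101 to 32 on water and from 101 to 48 with MitoQ.

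Values without a call changed sign as follows. With the covariate Sord on ethanol vehicle was -0.054, Khk on water 0.067, Akr1b3 and Akr1b7 with MitoGamide 0.062 and -0.79, and Akr1b8 and Khk in the mean of the 4 arms 0.011 and 0.14. Without the libraries high in Slc14a2 Khk was 0.0043 on ethanol vehicle and 0.042 in the mean, and without those that stood apart Khk with MitoQ was -0.13. When 1 library was left out, Khk ranged from -0.12 to 0.0043 on ethanol vehicle, from -0.14 to 0.13 with MitoQ and from -0.086 to 0.00044 in the mean, Sord on water from -0.036 to 0.26, and Akr1b8 with MitoGamide from -0.11 to 0.38.

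Over all genes the calls for Akita against WT on ethanol vehicle were 2910, against 844 in the fit of all 40 libraries and 1760 with the covariate. On water they were 101, against 354 with DESeq2, 547 in the fit of all libraries, 23 without the libraries that stood apart and 3 without those high in Slc14a2. With MitoGamide they were 2386, against 42 with the covariate. With MitoQ they were 101, against 415, 308, 270 and 9 for the same alternatives as on water and 377 with the covariate. In the mean they were 4052, against 6584 with the covariate. For MitoGamide in Akita mice they were 214, against 1022 with DESeq2, 32 in the fit of all libraries, 2 without those high in Slc14a2 and 0 with the covariate. In WT mice DESeq2 called 50 for MitoGamide, 2 for MitoQ and 725 for ethanol against water, each against 0, and the fit of all libraries 18 for MitoQ and 1567 for ethanol against water. Ethanol against water in Akita mice gave 2283, against 4264 with DESeq2, 1352 without a filter, 132 without the libraries that stood apart, 0 without those high in Slc14a2 and 1 with the covariate.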
